A study of Homo sapiens with 4 samples.

Results

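The replication-dependent histone genes were examined in 2 human leukemia cell lines treated with periplocin, a steroid glycoside from Cortex periplocae. Members were the rows of the gene table whose Ensembl identifier carried a current symbol of the clustered H1, H2A, H2B, H3 or H4 genes (H1-1 to H1-6 and the H2AC, H2BC, H3C and H4C series). The rule found 69 of 20348 genes, made up of 6 H1, 17 H2A, 18 H2B, 13 H3 and 15 H4 genes. By position, 55 lie on chromosome 6, 13 on chromosome 1 and 1, H4C16, on chromosome 12.

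The 4 groups were K562 with DMSO, K562 with 100 nM periplocin, THP-1 with DMSO and THP-1 with 100 nM periplocin, all collected after 72 h. K562 is an erythroid-like line from a chronic myelogenous leukemia, and THP-1 is a monocytic line from an acute myeloid leukemia. Each group was 1 library prepared from poly-A selected RNA, and the methods describe a single biological replicate for each condition, so no difference between 2 libraries has a replicate check. The sample titles call the controls blank, whereas the library names and the methods call them DMSO.

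Replication-dependent histone genes supply the bulk of the histones that package new DNA in S phase. H2A, H2B, H3 and H4 form the nucleosome core, and the H1 linker histones bind the DNA between nucleosomes. Their mRNAs normally end in a conserved stem-loop that is bound by SLBP instead of a poly-A tail. A library made by poly-A selection therefore samples only part of this RNA, and the values here are levels in such libraries and not of all histone mRNA.

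The stem-loops of 5 members with high counts are shown because poly-A selection should miss histone mRNAs that end there. In these 5 the annotated transcript itself runs on past the stem-loop, by 116 (H2BC4) to 1729 (H2BC21) bases. They were read from GENCODE 29 transcripts, where they lie in the 3′ UTR, and the capitals mark the letters that matched the conserved pattern of 16 bases on the transcript strand (GG, any 2 bases, CT, any base, TT, any base, AG, any 2 bases, CC).
H2AC6: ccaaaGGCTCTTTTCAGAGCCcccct
H2BC4: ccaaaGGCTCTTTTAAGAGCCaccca
H2BC21: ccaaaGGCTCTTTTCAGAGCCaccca
H3C10: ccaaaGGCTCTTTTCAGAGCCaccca
H4C8: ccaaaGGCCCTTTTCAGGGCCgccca
The H2A, H2B and H3 examples share 1 pair of stem arms, and the H4C8 stem differs from them in both arms. H2BC4 differs from H2BC21 within the loop. In the annotated transcripts of the 69 members, 30 held a match. Of these, 22 ran on for at least 100 bases past the stem-loop and 8 ended near it. Another 6 had a UTR without a match, and 33 were annotated as coding sequence only, so that no end could be read from them.

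The upstream sequences of 5 members are shown because they differ between histone classes and because 4 of them lie between H2A and H2B genes read in opposite directions. Each is the 120 bases before the RefSeq start in GRCh38.p14, written 5′ to 3′ on the gene's strand. The capitals mark the octamer ATTTGCAT, the CCAAT box CCAAT, the TATA box TATAAA and the HINFP core GTCCG, searched on both strands.
H2AC6, chr6:26124052-26124171, plus strand: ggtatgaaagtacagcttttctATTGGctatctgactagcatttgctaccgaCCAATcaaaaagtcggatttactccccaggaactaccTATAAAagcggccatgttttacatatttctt
H2BC4, chr6:26123927-26124046, minus strand: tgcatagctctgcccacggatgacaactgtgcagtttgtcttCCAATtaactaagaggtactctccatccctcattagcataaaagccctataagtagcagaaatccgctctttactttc
H2BC21, chr1:149886683-149886802, minus strand: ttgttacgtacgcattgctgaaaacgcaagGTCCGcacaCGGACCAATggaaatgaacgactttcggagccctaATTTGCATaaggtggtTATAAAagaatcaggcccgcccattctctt
H2AC20, chr1:149886798-149886917, plus strand: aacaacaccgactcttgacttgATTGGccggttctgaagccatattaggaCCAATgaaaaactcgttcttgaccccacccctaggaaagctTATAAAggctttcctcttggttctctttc
H4C8, chr6:26285535-26285654, minus strand: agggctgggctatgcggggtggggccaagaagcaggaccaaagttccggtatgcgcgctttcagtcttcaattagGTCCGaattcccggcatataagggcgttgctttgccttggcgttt
In H2BC21 a reverse GTCCG overlaps the CCAAT box. A promoter was found in RefSeq for 64 members, and the searches covered the 250 bases before each listed start. A gene with several starts, as 4 members have, was counted once if any start held the motif. The octamer was in 11 of 16 H2A and 14 of 18 H2B promoters in 1 of 11 H3 promoters and in 0 of the 6 H1 and 13 H4 promoters, against 2.03% of 27305 genes. The H3 gene was H3C4, which has a listed start in common with H2AC7. CCAAT was in all 6 H1, 16 H2A, 18 H2B and 11 H3 promoters and in 3 of 13 H4 promoters, against 37.0% of all. GTCCG was in 12 of 13 H4 promoters and in 16 of the 64 members, against 27.7% of all. TATAAA was in 43 of the 64 members and in 3563 of the 27305 genes. Where an H2A and an H2B gene start back to back, with 193 to 247 bases between the starts, the 2 searches cover largely the same DNA. A single site there can count for both genes and both classes. H2AC6 and H2AC20, for example, were counted for the octamer without one in their 120 bases printed above. A match describes these letters only.

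Library totals were 16381149 and 16560522 counts in K562 (DMSO and periplocin) and 20622694 and 17721490 counts in THP-1. The lines matched their labels: 7 K562 markers, among them fetal and embryonic globin genes, summed to 31934 and 141275 counts in the K562 libraries and to 69 and 38 in the THP-1 libraries. The 7 THP-1 markers summed to 1778 and 2015 counts in K562 and to 15786 and 17209 in THP-1. The mitochondrial share was 5.62% and 2.07% in the K562 libraries and 5.24% and 3.92% in the THP-1 libraries. In K562, 6 of the 7 K562 markers were at least 2-fold higher with periplocin, and the mitochondrial share was lower with periplocin in both lines. Their part in the histone values was not tested. Ratios between libraries were scaled by TMM, a scaling by the bulk of genes, and carry an exact 95% interval that covers counting error only.

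In K562, histone counts were several-fold higher with periplocin in each of the 5 classes. The 69 members together held 486 CPM (counts scaled to a common library total) with DMSO and 1694 CPM with periplocin, a fold of 3.46 (3.37 to 3.54). Counts of at least 10 summed over both libraries were reached by 47 members, of which 41 were at least 2-fold higher, against a background of 10.6% of the 13075 genes that passed the same filter. None was at least 2-fold lower, against 13.1% of genes. The median log2 ratio of these 47 was 2.09, beside −0.02 over all genes.

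That filter lets a member in through the library where it is high. Of the 33 members with at least 10 counts in the DMSO library alone, 30 were at least 2-fold higher, against 7.82% of 12294 genes, and their median was 1.93. The remaining members held little: 12 summed to between 1 and 9 counts and 10 were at 0 in both libraries. Over all 69, the CPM was higher with periplocin in 56, lower in 3 and at 0 in both in 10. The 6 members that passed but stayed within 2-fold were H4C14, H1-3, H3C7, H2AC16, H3C4 and H3C13. Except for H4C14, these held at most 30 counts in a K562 library.

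In THP-1 the sum was far lower and the fold was of similar size. The members held 28.9 CPM with DMSO and 102 CPM with periplocin, a fold of 3.58 (3.26 to 3.93). Only 20 members reached 10 counts over both libraries. Of these, 15 were at least 2-fold higher, against 9.83% of 13679 genes, and 0 were at least 2-fold lower, against 12.3%. Their median log2 ratio was 1.56, beside −0.03 over all genes. With the filter on the DMSO library, 11 of 14 were higher, against 7.27% of 12985 genes. A further 26 members summed to 1 to 9 counts and 23 were at 0 in both THP-1 libraries.

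**Figure D1:**
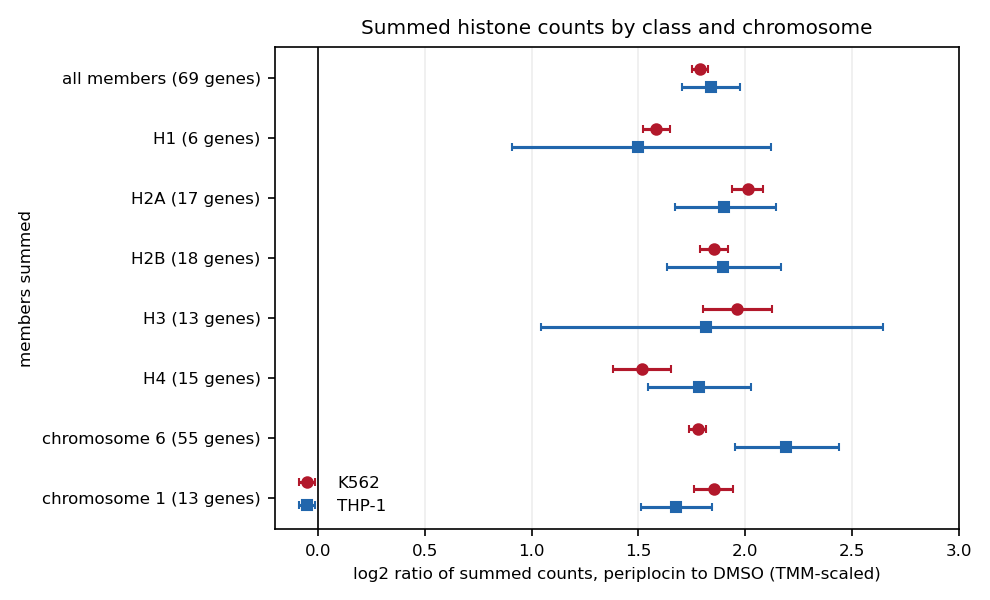
Log2 ratio of summed counts, periplocin to DMSO, for all members, for each class and for the chromosome 6 and chromosome 1 genes, in K562 (circles) and THP-1 (squares). Bars are 95% counting intervals of 1 library against 1 library. All sums lie above 0, from 1.50 for H1 in THP-1 to 2.19 for chromosome 6 in THP-1.

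A model of all 4 libraries, with terms for the line and for the treatment, asked which genes moved alike in both lines. It has 1 residual degree of freedom. edgeR's quasi-likelihood test called 0 of 13584 genes at an adjusted p under 0.05 (Benjamini-Hochberg), and the smallest adjusted p was 0.0911 over all genes and 0.359 among the members. At an unadjusted p under 0.05 it held 1535 genes. The 36 members in the fit all had a fitted log2 ratio above 0, and 22 of them had an unadjusted p under 0.05, against 5.62% of genes in that direction. None of them was lower at that p, against 5.68% of genes. DESeq2 gave 125 genes an adjusted p under 0.05, with 0.622% of 11740 genes called higher and 0.443% lower. Of 18 members with an adjusted p from DESeq2, 7 were called, all higher: H1-2, H2AC6, H2AC18, H2BC5, H2BC12, H4C8 and H4C15.

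The linker histone H1 was close to a single gene. H1-2 (chr6:26055740-26056470, minus strand) held 2777 counts with DMSO and 8414 with periplocin in K562, and 33 and 77 in THP-1. It was 2.97-fold higher with periplocin in K562 (2.85 to 3.11) and 2.74-fold higher in THP-1 (1.80 to 4.25). At 264 CPM per kb of its annotated transcript in K562 with DMSO it had the highest level of the members, and it supplied 34.8% of all member counts in that library. Its annotated transcript is coding sequence only, so its length may be understated. The same holds for H2BC12.

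The other 5 H1 genes were low. H1-4 held 5 counts with DMSO and 75 with periplocin in K562, and H1-6, a testis-type H1, held 1 and 33. H1-3 held 12 and 14, and H1-1 and H1-5 had at most 5 counts in any library. Without H1-2 the K562 log2 ratio of the class was 2.65 in place of 1.58, so the class value followed H1-2.

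In every library the H2A genes with the most counts were H2AC6, H2AC18 and H2AC25, in an order that differed between libraries. H2AC6 (chr6:26124172-26124690, plus strand) held 995 counts with DMSO and 4201 with periplocin in K562, and 29 and 141 in THP-1. Its fold was 4.15 (3.87 to 4.45) in K562 and 5.70 (3.80 to 8.83) in THP-1. H2AC18 (chr1:149842218-149842750, minus strand) held 186 and 1074 counts in K562 and 88 and 341 in THP-1.

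H2AC18 thus had the highest level per kb of any member in THP-1, at 7.77 CPM per kb with DMSO and 35.0 with periplocin. Its transcript shares 150-base stretches along its whole length with H2AC19, which was at 0 in all 4 libraries, so reads of the 2 copies cannot be told apart. H2AC25 held 372 and 1151 counts in K562 and 52 and 83 in THP-1, a log2 ratio of 1.60 (1.43 to 1.78) and 0.90 (0.39 to 1.43).

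The smaller H2A genes followed in K562. H2AC13 held 107 and 405 counts, H2AC11 95 and 448, H2AC8 83 and 249, and H2AC7 19 and 105, all at least 2-fold higher. In THP-1 these 4 stayed at or below 19 counts. In all, 10 of 11 H2A members that passed the filter in K562 and 3 of 5 in THP-1 were at least 2-fold higher. Over all genes these shares were 10.6% and 9.83%. With the filter on the DMSO library it was 9 of 9 and 2 of 4, against 7.82% and 7.27% of genes. The class sum was 1905 and 7828 counts in K562, a log2 ratio of 2.01 (1.94 to 2.09), and 196 and 625 in THP-1, a log2 ratio of 1.90 (1.67 to 2.14).

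All 15 H2B genes that passed the filter in K562 were at least 2-fold higher, and 5 of 8 were in THP-1. Over all genes these shares were 10.6% and 9.83%. With the filter on the DMSO library it was 13 of 13 and 4 of 5, against 7.82% and 7.27% of genes. H2BC12 (chr6:27138293-27146858, minus strand) held 775 and 2773 counts in K562 and 39 and 172 in THP-1, a fold of 3.51 (3.24 to 3.81) and 5.17 (3.64 to 7.53). H2BC21 (chr1:149884459-149886682, minus strand) held 343 and 1615 counts in K562 and 52 and 101 in THP-1. Its fold was 4.62 (4.11 to 5.21) in K562 and 2.28 (1.62 to 3.25) in THP-1.

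H2BC15 had the smallest K562 ratio of the H2B genes that passed, with 457 and 988 counts and a log2 ratio of 1.09 (0.92 to 1.25). In THP-1 it held 15 and 22 counts, and its interval there included no change (−0.23 to 1.83). H2BC5 held 283 and 1224 counts in K562 and 12 and 96 in THP-1, with log2 ratios of 2.09 and 3.23. H2BC4 held 151 and 582 counts in K562. In THP-1 the same gene had 1 count with DMSO and 27 with periplocin, and the log2 ratio of 4.99 had an interval from 2.38 to 10.34.

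The other H2B genes above 100 counts reached that number in K562 with periplocin. H2BC11 held 103 and 365 counts there, H2BC8 28 and 191, and H2BC7 22 and 131. These 3 genes had 0 counts in the THP-1 DMSO library and at most 3 with periplocin. H2BC6 held 29 and 121, H2BC26 24 and 106, and H2BC18 13 and 105 in K562.

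H2BC18 was the H2B gene that both lines held at similar levels with DMSO. It had 13 counts in K562 and 16 in THP-1, and the ratio between the lines was 0.09 on the log2 scale (−1.06 to 1.26). With periplocin it reached 105 counts in K562 and 36 in THP-1.

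In K562 most H3 counts came from H3C10 (chr6:27810051-27810536, plus strand), which held 320 and 1237 counts in K562 and 5 and 21 in THP-1. Its fold was 3.80 (3.35 to 4.31) in K562 and 4.93 (1.81 to 16.7) in THP-1. H3C6 held 16 and 149 counts in K562 and 0 and 6 in THP-1. In THP-1 the H3 member with the most counts was H3C14, at 11 and 26. The class held 388 and 1540 counts in K562, a log2 ratio of 1.96 (1.80 to 2.13), and only 19 and 57 in THP-1, a log2 ratio of 1.82 (1.04 to 2.65). Of the H3 genes that passed, 5 of 8 in K562 and 2 of 2 in THP-1 were at least 2-fold higher. Over all genes these shares were 10.6% and 9.83%. With the filter on the DMSO library it was 3 of 4 and 1 of 1, against 7.82% and 7.27% of genes.

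In K562 the H4 ratios differed between chromosome 6 and chromosome 1, where the only H4 genes are the near-identical pair H4C14 and H4C15. H4C8 (chr6:26285126-26285534, minus strand) held 267 and 1036 counts in K562 and 11 and 45 in THP-1, a fold of 3.81 (3.33 to 4.37) and 4.80 (2.44 to 10.3). H4C12 held 22 and 105 counts in K562 and 1 and 9 in THP-1. Together the 12 H4 genes of chromosome 6 had a log2 ratio of 2.02 (1.84 to 2.20) in K562. In THP-1 their ratio was 2.34 (1.45 to 3.33), which overlaps the interval of the chromosome 1 pair there (1.52 to 2.03).

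On chromosome 1, H4C14 and H4C15 went apart in K562. H4C14 (chr1:149832657-149833052, plus strand) held 279 counts with DMSO and 246 with periplocin, a log2 ratio of −0.21 (−0.46 to 0.04). H4C15 (chr1:149844488-149861240, minus strand) held 4 and 196 counts, a log2 ratio of 5.59 (4.21 to 7.48). In THP-1 both were higher, with 127 and 272 counts for H4C14 and 47 and 236 for H4C15.

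Their annotated transcripts share 92.2% and 97.0% of their 150-base stretches, and both had non-whole counts in the deposited table, so the split between them is uncertain. Added together they held 283 and 442 counts in K562, a log2 ratio of 0.62 (0.40 to 0.84), and 174 and 508 in THP-1, a log2 ratio of 1.78 (1.52 to 2.03). The K562 sum of this pair was thus less than 2-fold higher. The H4 class ratio in K562, which includes this pair, was 1.52 (1.38 to 1.65), and without H4C8 it was 1.07. In all, 8 of 9 H4 genes that passed in K562 and 4 of 4 in THP-1 were at least 2-fold higher. Over all genes these shares were 10.6% and 9.83%. With the filter on the DMSO library it was 4 of 5 and 3 of 3, against 7.82% and 7.27% of genes.

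Other near-identical copies were also counted unevenly. H3C14 held 0 and 32 counts in K562, at least 10.5-fold higher against a floor of 3 counts per library, while its copy H3C15 went from 7 to 0. Their sum was 7 and 32 counts, a log2 ratio of 2.17 (0.96 to 3.59). In all, 13 members shared a 150-base stretch with another member, and they held 634 and 2161 counts in K562 and 280 and 893 in THP-1. The 56 members without such a stretch had log2 ratios of 1.79 (1.76 to 1.83) in K562 and 1.78 (1.60 to 1.97) in THP-1. The gene spans of H4C15 with H2AC19 and H3C15, of H3C4 with H2AC7 and of H2BC12 with H4C9 overlap, and whether counting used the strand was not given, so their counts are uncertain too.

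**Figure D2:**
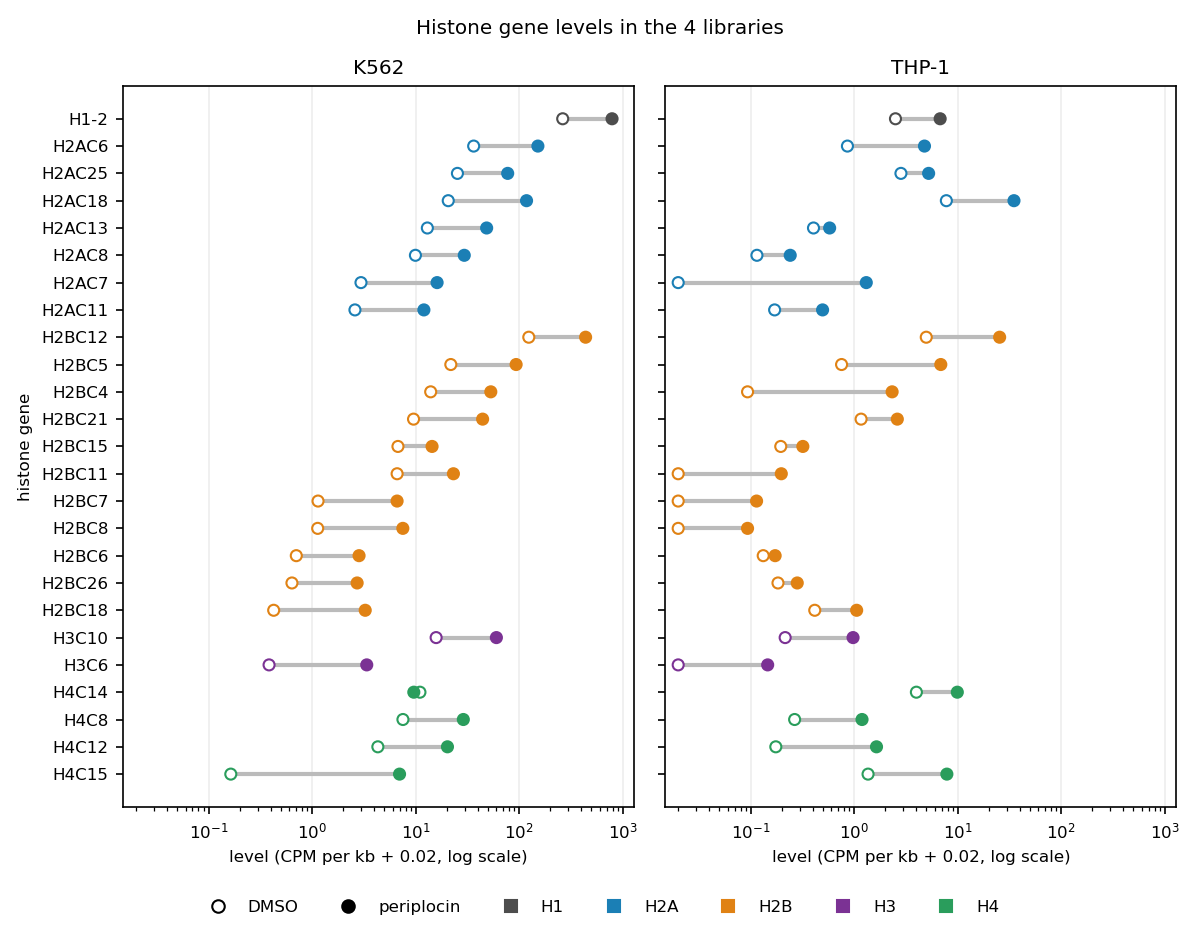
Level of the 25 members with at least 100 counts in a library, in CPM per kb of annotated transcript plus 0.02 on a log axis, grouped by class, with DMSO as open and periplocin as filled circles (1 library each). In K562 all but H4C14 lie higher with periplocin, and in THP-1 all 25 do. All 25 reached 100 counts in K562 with periplocin but only 14 did with DMSO, so the choice favors members high with periplocin. In THP-1 only 1 reached 100 counts with DMSO and 6 with periplocin, and several lie near the floor of 3 counts.

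A few members carried most counts in each library. In K562 with DMSO, 48 members had a count and 12 of them gave 90% of the sum. With periplocin, 57 had a count and 14 gave 90%. The leading 5 in K562 with DMSO, H1-2, H2AC6, H2BC12, H2BC15 and H2AC25, held 67.5% of the sum. In THP-1 with DMSO, 33 members had a count, and the largest share, 21.3%, was that of H4C14. With periplocin the largest share in THP-1 was that of H2AC18, at 18.8%.

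The make-up by class differed far more between the lines than with treatment. H1 gave 35.1% of histone counts in K562 with DMSO (34.0 to 36.2, exact binomial interval) and 30.4% with periplocin, but 5.71% (3.99 to 7.89) and 4.52% in THP-1. H4 gave 7.53% (6.96 to 8.13) and 6.23% in K562, but 32.4% (28.7 to 36.4) and 31.2% in THP-1. The shares of H2A (23.9% and 27.9% in K562, 32.9% and 34.4% in THP-1) and H2B (28.6% and 29.9%, 25.7% and 26.8%) lay closer together. H3 gave between 3.14% and 5.49% in every library. These are shares of counts and not of RNA molecules, since they were not divided by transcript length.

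**Figure D3:**
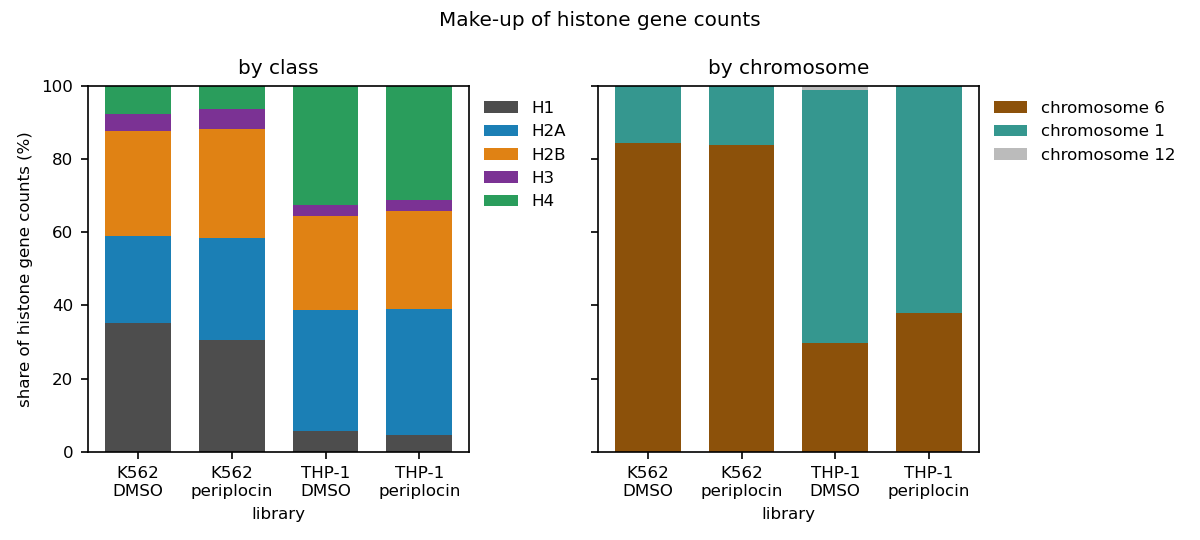
Share of histone gene counts by class (left) and by chromosome (right) in each of the 4 libraries, in percent. Chromosome 1 genes gave 15.5% and 16.2% of the counts for K562 and 69.2% and 61.9% for THP-1.

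The position of the genes divided the lines as well. With DMSO, chromosome 6 members held 6735 counts in K562 and 177 in THP-1, 44.1-fold lower in THP-1 after scaling (37.9 to 51.4). Chromosome 1 members held 1234 and 412 counts, 3.47-fold lower in THP-1 (3.10 to 3.89). Over all members the THP-1 DMSO library was 15.5-fold below the K562 DMSO library (14.3 to 16.9). Of 36 members with at least 10 counts over both DMSO libraries, 32 were at least 2-fold lower in THP-1, against 22.1% of 14137 genes, and 3 were higher, against 24.9%. The 3 were H2AC20, H3C14 and H4C15, all on chromosome 1. These 3 passed only through the THP-1 library: with at least 10 counts in the K562 DMSO library, 32 of 33 members were lower, against 25.1% of 12294 genes, and 0 were higher, against 15.2%. The 33 were 27 on chromosome 6, all lower, and 6 on chromosome 1, of which 5 were lower. That filter in turn lets members in through the K562 library, where most of them are high, so it favors lower values in THP-1. In the THP-1 DMSO library only 14 members reached 10 counts.

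H3C14 and H4C15 belong to the near-identical copies, and the sums with their copies were not higher in THP-1 beyond counting error. H4C14 and H4C15 together were 1.88-fold lower in THP-1 (1.55 to 2.29), and H3C14 and H3C15 held 7 and 11 counts. H2AC20 had no such copy and held 1 count in K562 and 10 in THP-1 with DMSO, a log2 ratio of 3.11. With periplocin, 42 of 46 members were at least 2-fold lower in THP-1 than in K562, against 23.4% of 14159 genes, and H2AC20 alone was higher, against 26.8%.

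Within K562 the summed log2 ratio was 1.78 (1.74 to 1.82) on chromosome 6 and 1.85 (1.76 to 1.94) on chromosome 1. The classes differed behind these sums. H2B had 1.76 (1.69 to 1.84) on chromosome 6 and 2.24 (2.08 to 2.40) on chromosome 1, whereas H4 had 2.02 and 0.62. H2A had 2.03 and 1.97, and H3 had 1.97 and 1.75. In THP-1 the summed ratio was 2.19 (1.95 to 2.44) on chromosome 6 and 1.68 (1.51 to 1.84) on chromosome 1, intervals that do not overlap in counting error and have no replicate check. The chromosome 6 share of THP-1 histone counts was 29.7% with DMSO and 38.0% with periplocin, and that of chromosome 1 was 69.2% (65.4 to 72.9) and 61.9% (59.6 to 64.1).

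Smaller groups along the chromosomes gave a finer picture. The 34 genes of the first chromosome 6 group had log2 ratios of 1.80 in K562 and 2.37 in THP-1. The 5 genes of the second group gave 1.86 and 2.28, and the 16 genes of the third gave 1.60 and 1.29. On chromosome 1, the 11 genes at 1q21 gave 1.94 and 1.78, and the 2 genes at 1q42, H2AC25 and H2BC26, gave 1.64 and 0.88. Among the groups, the third on chromosome 6 and the 1q42 pair had the lowest ratios in both lines, but some intervals overlapped. In K562 that of 1q42 (1.48 to 1.81) overlapped that of the first chromosome 6 group (1.75 to 1.84). In THP-1 the third group held only 33 and 69 counts. Its interval there (0.68 to 1.94) overlapped that of 1q21 (1.60 to 1.96).

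**Figure D4:**
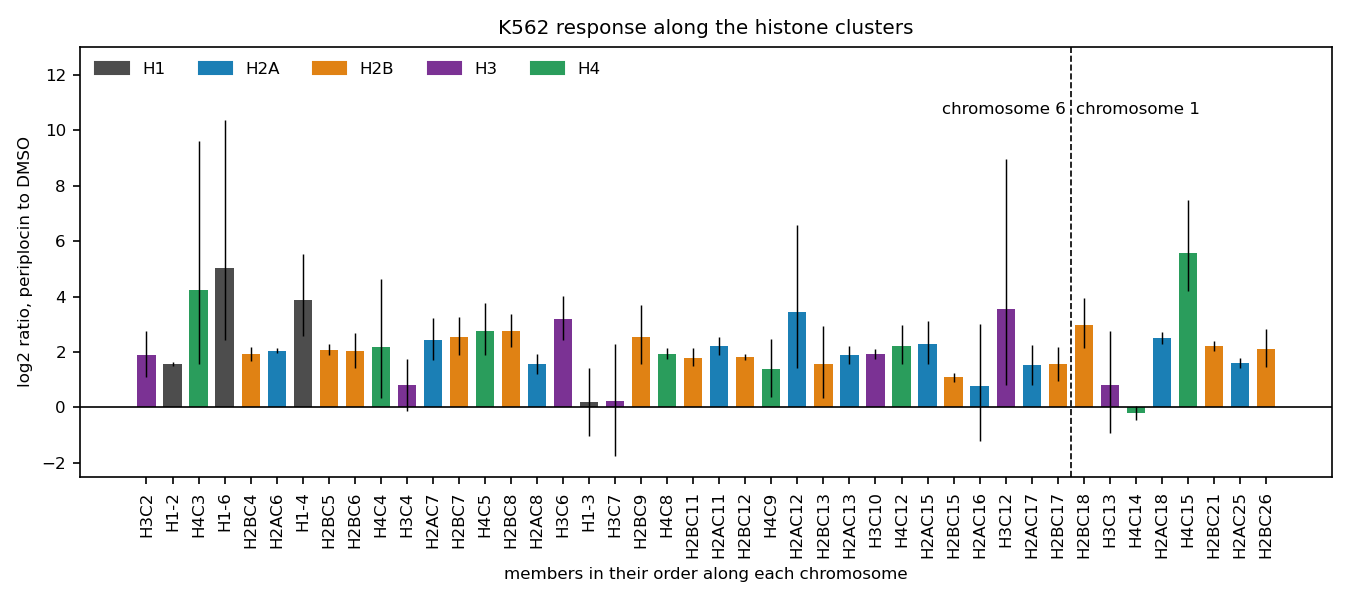
Log2 ratio of periplocin to DMSO in K562 for the 44 members on chromosomes 6 and 1 with at least 10 counts over both libraries and a count with DMSO, in their order along each chromosome, coloured by class. Lines are 95% counting intervals. Bars stand above 0 in every stretch and class, with H4C14 as the single bar below 0 and H4C15 at 5.59.

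Many H2A and H2B genes start back to back from a shared stretch of DNA. Members formed 11 such pairs, with 193 to 247 bases between the starts. Per kb of transcript, K562 with periplocin had the higher level for the H2A gene in 5 pairs and for the H2B gene in 5, and H2AC1 and H2BC1 were at 0. In 7 pairs the levels lay at least 2-fold apart.

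The H2AC20 and H2BC21 pair was the most unequal. H2BC21 was at 9.54 CPM per kb with DMSO and 44.4 with periplocin in K562, where H2AC20 had 1 and 3 counts. In THP-1 the same pair was near equal per kb, at 1.15 and 2.60 CPM per kb for H2BC21 and 1.24 and 2.46 for H2AC20. In counts it was not, with 52 and 101 for H2BC21 and 10 and 17 for H2AC20. The near equality rests on annotated length, since the H2BC21 transcript has 2194 bases and that of H2AC20 is coding sequence only. Both promoters held all 4 motifs within the 250 bases searched, but with 235 bases between the starts the 2 searches cover the same DNA. The octamer and GTCCG counted for H2AC20 lie outside its own 120 bases printed above, in the stretch printed for H2BC21.

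Other pairs were unequal in the opposite sense. H2AC25 was at 77.7 CPM per kb with periplocin in K562 and H2BC26 at 2.71, and H2AC13 was at 48.6 and H2BC13 at 2.97. H2AC6 and H2BC4, the pair whose upstream sequences are also shown, stood at 152 and 53.3 CPM per kb with periplocin in K562. Their log2 ratios in K562, 2.05 (1.95 to 2.15) and 1.92 (1.66 to 2.19), overlapped within counting error. H2AC15 and H2BC15 were near equal per kb, at 13.8 and 14.4, although H2BC15 had 988 counts and H2AC15 90, since the annotated H2BC15 transcript is much longer.

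**Figure D5:**
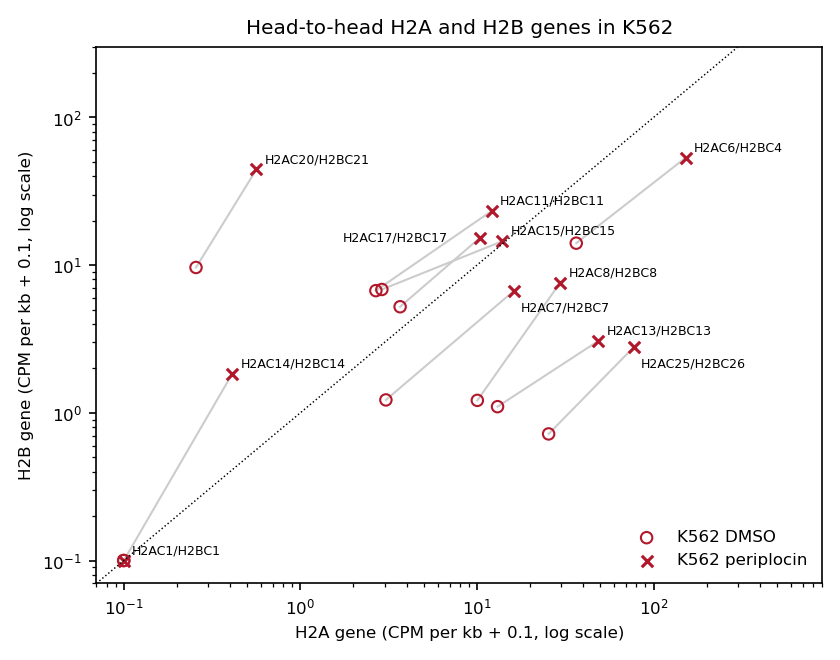
Level of the H2B gene against that of the H2A gene for 11 pairs that start back to back, in K562 with DMSO (circles) and periplocin (crosses), in CPM per kb plus 0.1 on log axes. Grey lines join the 2 libraries and the dotted line marks equal levels. Pairs with counts in both libraries move up and to the right with periplocin and keep their side of the dotted line.

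Levels per kb differed with the annotated end of the transcript. In K562 with DMSO the median level was 5.48 CPM per kb for the 8 members whose transcript ends near the stem-loop, 0.900 for the 22 that run past it, 0.252 for the 6 with a UTR but no match and 0.160 for the 33 with coding sequence only. The last group still held H1-2 and H2BC12, at 264 and 124 CPM per kb. These levels are divided by annotated length, which itself depends on how far the annotation runs. Undivided, the groups held 667, 3440, 126 and 3736 counts in the same order. The part of length in the order of the medians was not tested. With periplocin all 4 medians were higher in K562, at 16.3, 6.80, 3.07 and 0.882 CPM per kb. The order was not the same in THP-1, where the medians with DMSO were 0.0973 for transcripts that end near the stem-loop, 0.158 for those that run past it and 0 for the others. The summed log2 ratios in K562 were 2.14 (2.02 to 2.26) for transcripts that end near the stem-loop, 1.84 (1.79 to 1.90) for those that run past it, 2.32 (2.04 to 2.61) for a UTR without a match and 1.64 (1.59 to 1.69) for coding sequence only. In THP-1 they were 2.30, 1.65 and 1.92 for the first, second and last of these, and the UTR group without a match held 0 counts with DMSO and 11 with periplocin.

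Replication-independent histone genes, most of which have polyadenylated mRNAs and are also made outside S phase, were not part of the members. Of 11 such genes, 8 passed the filter in K562 and only CENPA, the centromeric H3, was at least 2-fold higher, with 367 and 774 counts. In THP-1, 0 of 10 were at least 2-fold changed. Over all genes that passed, 10.6% were at least 2-fold higher and 13.1% lower in K562, and 9.83% and 12.3% in THP-1. Their median log2 ratios were 0.30 in both lines. H3-3A, which encodes the H3.3 variant, had log2 ratios of 0.54 in K562 and 0.50 in THP-1, and H3-3B, which encodes the same protein, had −0.37 and −0.04.

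The members' share against these genes therefore was higher with periplocin. Among counts of H3 members, H3-3A and H3-3B, the members gave 3.03% with DMSO and 9.50% with periplocin in K562, against 0.107% with DMSO and 0.300% with periplocin in THP-1. For H2A against its variants the share was 11.9% and 31.6% for K562 and 0.716% and 2.19% for THP-1.

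Genes that make, process or use histone mRNA did not move by 2-fold as groups. The few named in each list stand beside all genes, of which 10.6% were higher and 13.1% lower in K562. In THP-1 these shares were 9.83% and 12.3%. Of 12 genes for 3′ end processing, 0 were 2-fold changed in K562, and 1, ZNF473, was lower in THP-1 (1022 and 367 counts). SLBP was among those not past 2-fold, with 2270 and 2148 counts in K562 and 3264 and 2359 in THP-1. Of 11 genes for histone gene transcription, CCNE2 was lower in K562 (394 and 180 counts) and CCNE1 in THP-1 (488 and 163). Of 8 genes for histone mRNA decay, ERI1 (931 and 2009) and XRN1 (1161 and 2395) were higher in K562, and TUT7 (1174 and 2296) was higher in THP-1.

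Of 17 histone chaperone and import genes, CABIN1 was higher in K562 (1912 and 4001 counts) and IPO4 was lower in both lines (696 and 341 in K562, 1017 and 169 in THP-1). Of 18 S phase replication genes, RRM2, a subunit of ribonucleotide reductase, was lower in both lines, with 4505 and 1563 counts in K562 and 2765 and 623 in THP-1. CDT1 (3196 and 1355) and CDC45 (947 and 394) were lower in THP-1 as well. Thus 1 of 18 was lower in K562, against 13.1% of all genes, and 3 of 18 in THP-1, against 12.3%. The median log2 ratio of the 18 was −0.10 in K562 and −0.66 in THP-1, beside 2.09 and 1.56 for the histone members that passed the filter. In bulk poly-A libraries, changes in the number of cells in S phase, in RNA per cell and in its polyadenylated part cannot be told apart. The paper reports a smaller share of cells in S phase with periplocin in both lines, at the same dose and time. Its part in the histone values was not tested.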

How the data were processed

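The authors deposited 1 gene table with an expected count (estimated count, not normalized) per gene for each of 4 libraries. RNA was poly-A selected and sequenced as paired 150-base reads. The submitters' processing notes name HISAT2, StringTie 1.3.1 and hg38; the counting program and annotation were not given in the sources used here. The labels and the methods name different sequencing platforms. Between 87.4% and 88.3% of values were whole numbers, and counts were rounded. Symbols came from a table of gene names, which matched 20310 of 20348 identifiers.

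Each pair of libraries was scaled by TMM in edgeR 4.0.16. With 1 library per condition no p-value was computed for a pair: a gene was counted as higher or lower past 2-fold at 10 or more counts summed over the pair (prior count 0.125), and ratios carry exact binomial 95% intervals, which cover counting error only. The 4-library fit used edgeR's quasi-likelihood test, with DESeq2 1.42.0 as the alternative, on genes with 10 counts in at least 2 libraries. The calculations were tested on simulated data. A count of 0 was set to a floor of 3 counts for folds. Coordinates and promoters are RefSeq GRCh38.p14, and transcripts are GENCODE 29 (65 members by identifier, 4 by older symbol). Every member with at least 100 counts in a library was named with its counts, as were listed genes past 2-fold with at least 100 counts; SLBP, other members and the printed sequences were chosen after their values were seen. The members and lists were chosen with earlier results of these data known.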

Additional observations from a re-analysis of the deposited data

How the results depend on the processing

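Alternatives covered the scaling, the filter on low counts, the fold, the prior count and which members were summed. No result changed direction. Of the values that answer a comparison, 75 moved by less than their counting interval or by less than 1.5 times, and 20 moved by more. At 4-fold, 26 members were higher in K562 in place of 41 and 9 in THP-1 in place of 15. With no filter beyond 1 count, 31 members were higher in THP-1, and 2 were lower in K562 and 6 in THP-1 in place of 0. Without H1-2, the summed log2 ratio was 1.89 in K562, that of chromosome 6 in K562 was 1.91, that of H1 was 2.65 in K562 and 2.55 in THP-1, and that of THP-1 against K562 with DMSO was −3.42 in place of −3.95. Leaving out the largest member elsewhere gave 2.13 for H3 in K562 (H3C10), 1.07 for H4 in K562 (H4C8), 1.69 for chromosome 1 in K562 (H2BC21), 1.63 for H2A and 1.50 for chromosome 1 in THP-1 (H2AC18), and 2.39 for H4 in THP-1 (H4C14). With only the members that share no 150-base stretch, THP-1 against K562 with DMSO was −4.75. Over both lines, DESeq2 called 125 genes and the quasi-likelihood test without a filter 1, in place of 0. The sums without shared stretches or without H1-2, the copies added together and the filter on the DMSO library were chosen after seeing the data. The sums over members with distinct proteins were not run, since protein sequences were not used here.

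The labels give no replicate numbers, so no replicate block was fitted, and the term for the line in the 4-library fit is what paired periplocin with DMSO within each line. In THP-1 most members lie at or near the floor of 3 counts, so their ratios are not resolved at this depth. Scaling by total counts in place of TMM moved the median of all genes between the lines from 0.04 to −0.08 with DMSO and from 0.00 to −0.17 with periplocin.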
